A study of Mus musculus with 12 samples.

Results

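Draxin, netrin and the receptors through which they act guide growing axons and migrating neurons, and 9 of their genes were followed through mouse medulloblastoma and cerebellum: the ligands Draxin and Ntn1, the receptors Dcc and Neo1, the Unc5 receptors Unc5a, Unc5b, Unc5c and Unc5d, and the Robo family member Robo3. The members were the rows of the expression table that carried these 9 symbols, out of 24091 genes. The set was built around Draxin, which was chosen by its measured TPM in tumors and controls as one of the genes most raised in the tumors, so those levels are given as a description without a test. The 8 other members belong to its pathway.

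PolyA RNA was sequenced from 12 samples in 4 groups of 3 mice. The tumors were medulloblastomas of Brca2-mut;Trp53-mut mice GB344, GB359 and GB370, and the adjacent samples were cerebellum labelled normal from the same 3 mice, collected when tumors formed or at a humane endpoint. The controls were cerebella taken at postnatal day 90 from Brca2-mut;Trp53-WT mice (GB361, GB508 and GB512) and from Brca2-WT;Trp53-mut mice (GB517, GB519 and GB520). In the Brca2-mut mice, exons 3 and 4 were floxed and removed by Cre under the human GFAP promoter, which acts in the developing central nervous system, while Trp53-mut denotes a global knockout. Each control genotype thus carried 1 of the lesions found in the tumor mice, and no group was wild type at both genes. Whether the Brca2-WT mice carried Cre is not given in the sources used here, and mice were of mixed background. Levels are given as TPM, the abundance of a gene's transcripts scaled for their length and for the total of the sample, so that they can be compared between genes.

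In the textbook picture, netrin is a secreted cue that attracts axons through Dcc and repels them through Unc5 receptors, which act alone or together with Dcc. Draxin is a secreted protein that binds both netrin and Dcc, while Neo1 is the close relative of Dcc and also a receptor for repulsive guidance molecules. In the cerebellum these receptors are known for placing granule cells and precerebellar neurons, and loss of Unc5c displaces granule and Purkinje cells in mice.

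The start regions of the member that chose the set and of the member with the largest decrease in the tumors are shown because they are the ends of the range described here. RefSeq promoters (GRCm38.p6, 250 bases before to 50 after an annotated start) were at hand for 6 of the 9 members, namely Draxin, Neo1, Unc5a, Unc5b, Unc5c and Robo3. The 250 bases before the start are printed for Draxin, on the minus strand at chr4:148130699-148130948, and for Unc5a, on the plus strand at chr13:54949161-54949410, both 5′ to 3′, with the E-box match in capitals. Both stretches lie within the span that RefSeq gives the gene, since other transcripts start further upstream.
Draxin: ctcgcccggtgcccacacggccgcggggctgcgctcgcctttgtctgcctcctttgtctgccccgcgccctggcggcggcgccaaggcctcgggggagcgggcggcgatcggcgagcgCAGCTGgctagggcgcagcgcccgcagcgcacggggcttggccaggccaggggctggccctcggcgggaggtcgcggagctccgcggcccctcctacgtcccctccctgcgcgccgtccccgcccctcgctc
Unc5a: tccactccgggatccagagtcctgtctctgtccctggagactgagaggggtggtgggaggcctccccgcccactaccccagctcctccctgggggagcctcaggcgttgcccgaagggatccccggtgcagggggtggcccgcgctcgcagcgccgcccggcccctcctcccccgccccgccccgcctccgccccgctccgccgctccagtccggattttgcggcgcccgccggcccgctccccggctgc

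The letters CAGCTG, an E-box that reads the same on both strands and is of the type bound by Atoh1, were found in the Draxin promoter, with the first base at -132 from the start. No other of the 6 member promoters held them, and 16.3% of all 32851 promoters in the table did. The letters GACCACCCA, the core bound by GLI factors, were searched on both strands and were in none of the 6 member promoters and in 0.253% of all promoters. The member promoters were rich in G and C, from 63.3% in Robo3 to 82.7% in Neo1, with 78.0% in Draxin and 78.3% in Unc5a, against a median of 52.7% over all promoters. A match is a description of the letters only, and binding was not measured.

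The table held no read counts, so sequencing depth is unknown, and each column summed to between 999793 and 999876 TPM, with 15088 to 15803 genes at 1 TPM or more. Gene-level TPM does not check the deletions, since reads outside the deleted exons still count: Brca2 was at 8.22 to 14.6 TPM in tumors and 3.24 to 4.40 in controls. Trp53 was at 124.1 to 130.5 TPM in tumors and at 47.1 to 49.4 TPM in the controls labelled Trp53-mut, above the 33.1 to 37.2 TPM of those labelled Trp53-WT. Of the 6 granule cell progenitor markers (Atoh1, Barhl1, Gli1, Sfrp1, Mki67 and Top2a), the summed level was 887 to 1697 TPM in tumors, 486 and 445 TPM in the GB344 and GB359 adjacent cerebella, 69.9 TPM in that of GB370 and 34.5 to 45.2 TPM in controls. Atoh1, the defining transcription factor of these progenitors, was at 59.4, 50.5 and 5.0 TPM in the GB344, GB359 and GB370 adjacent cerebella and at no more than 0.212 TPM in controls, so 2 of the 3 samples labelled normal held abundant progenitor transcripts. The main results that rest on these samples are therefore also given with the GB370 adjacent cerebellum alone. The 6 mature granule cell markers summed to 128 to 442 TPM in tumors, 2212 to 3351 in adjacent and 2773 to 3749 in control cerebella, and the 6 Purkinje cell markers to 54.5 to 280.0, 3734 to 4618 and 4414 to 7454 TPM. None of the markers of these 3 lists was at 0 across a group. The 6 choroid plexus markers, led by Ttr, summed to 3969 to 5191 TPM in the Brca2-WT;Trp53-mut cerebella but to 19.5 to 878 TPM in the Brca2-mut;Trp53-WT cerebella. Of the other lists, the summed markers of inhibitory interneurons were at 101 to 202 TPM in tumors and 1901 to 2786 TPM in controls, those of oligodendrocytes at 93.1 to 290.01 and 3239 to 5044 TPM, and those of astrocytes and Bergmann glia at 289 to 524 and 1457 to 1815 TPM. Oligodendrocyte precursor markers were at 207 to 427 and 103 to 214 TPM, pericyte and fibroblast markers at 63.2 to 121 and 81.2 to 105 TPM, and microglial markers at 54.2 to 87.4 and 42.4 to 67.2 TPM. In bulk tissue, fewer cells of a type and less RNA per cell cannot be told apart.

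**Figure D1:**
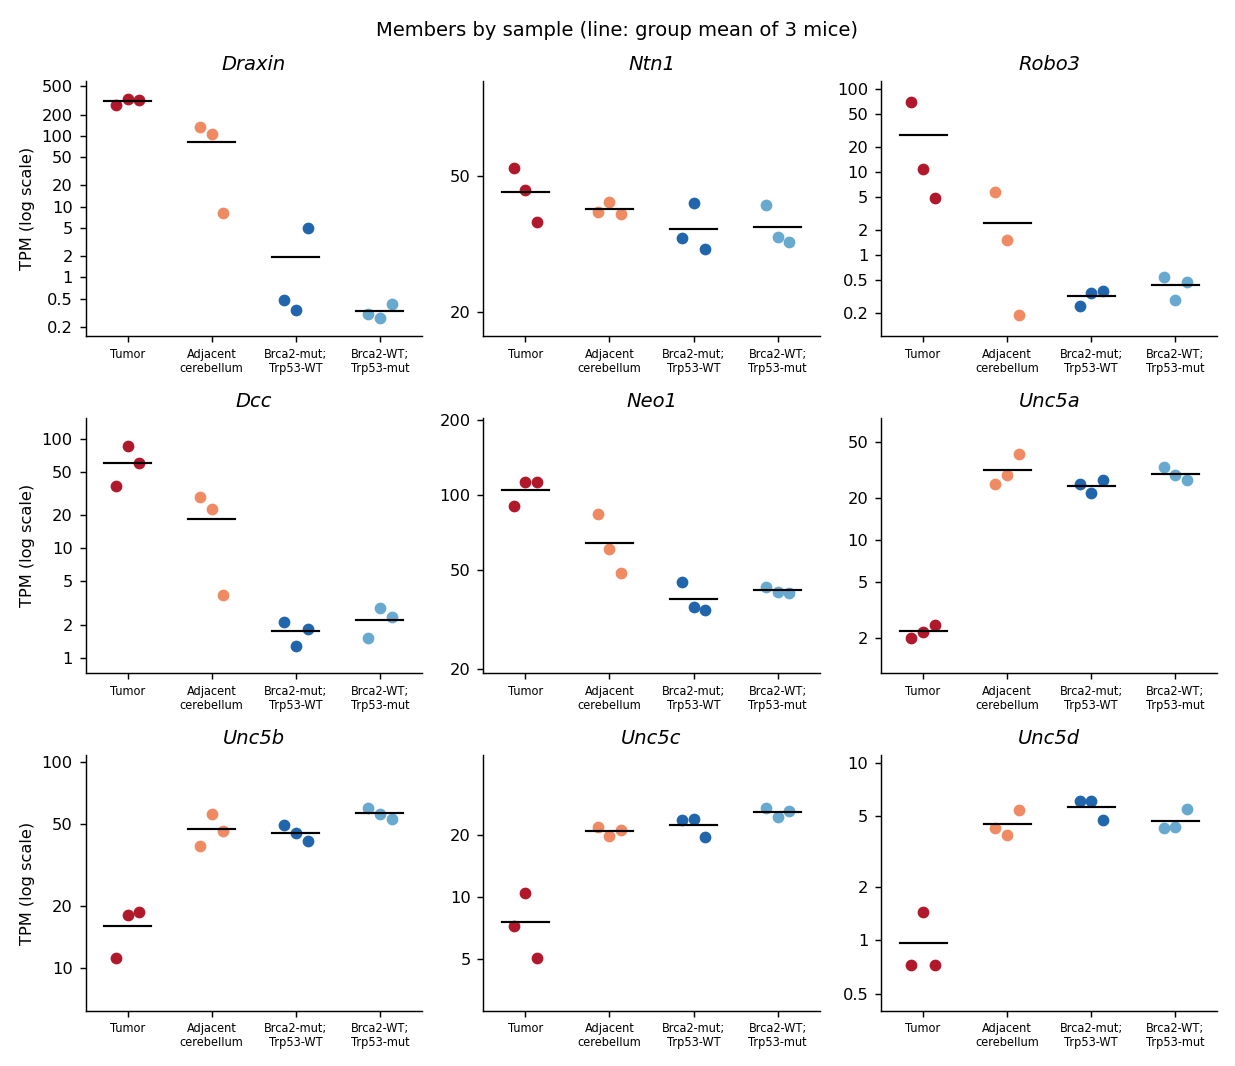
TPM of each of the 9 genes (vertical axis, log scale, with its own range per gene) in the 12 samples by group (horizontal axis), points being samples in the order of their mouse numbers and lines the mean of 3 mice. Draxin, Dcc and Neo1 step down from tumor to adjacent to control, the 4 Unc5 genes are low in the tumors only, and Ntn1 is nearly level from 30.5 to 53.0 TPM.

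Draxin (Entrez Gene 70433; chromosome 4, 148098437 to 148131139, GRCm38.p6) was at 273.8, 330.4 and 324.9 TPM in the GB344, GB359 and GB370 tumors. In the adjacent cerebella of the same mice it was at 134.2, 105.4 and 8.08 TPM. It was at 0.477, 0.343 and 4.90 TPM in the Brca2-mut;Trp53-WT cerebella of GB361, GB508 and GB512, and at 0.304, 0.263 and 0.418 TPM in the Brca2-WT;Trp53-mut cerebella of GB517, GB519 and GB520. The tumors were close to each other, the adjacent samples spread widely, and 5 of the 6 controls were below 1 TPM. Tumor, adjacent and control ranges did not overlap, whereas those of the 2 control genotypes did. On the log2(TPM + 1) scale, which understates the change of a gene near 0, the mean tumor level was 7.48 above that of the 6 controls and 2.61 above that of the adjacent cerebella. The adjacent mean was 4.87 above the controls, and with the GB370 adjacent cerebellum alone this was 2.39 and the tumor and adjacent difference 5.09. The RefSeq span of Draxin overlaps that of Mad2l2, on the opposite strand, by 982 bases, but the 2 genes share no exonic base in the GENCODE annotation of the same build. Mad2l2 itself was at 165.0 to 181.8 TPM in tumors and 11.7 to 20.2 TPM in controls.

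Ntn1 (chromosome 11, 68209364 to 68386826), the netrin that Dcc and the Unc5 receptors bind, differed least among the members. It was at 53.0, 45.6 and 36.7 TPM in the tumors of GB344, GB359 and GB370 and at 39.3, 42.1 and 38.7 TPM in their adjacent cerebella. The controls were at 32.9, 41.7 and 30.5 TPM in Brca2-mut;Trp53-WT and 41.2, 33.1 and 32.2 TPM in Brca2-WT;Trp53-mut mice. Neighbouring groups overlapped throughout this order. The tumors were 0.34 ± 0.14 (SE) above the controls on the log2 scale with a limma adjusted p of 0.0492. Ntn1 was therefore not called, since a called gene has both an adjusted p below 0.01 and a log2 difference of 1 or more in size. Mir6406 lies within Ntn1 on the other strand and shares 120 bases of its span but none of its exonic bases.

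Dcc (chromosome 18, 71253613 to 72351228), the attractive netrin receptor to which Draxin also binds, rose with Draxin. The tumors of GB344, GB359 and GB370 were at 36.7, 85.9 and 59.7 TPM and the adjacent cerebella at 29.5, 22.7 and 3.76 TPM. The Brca2-mut;Trp53-WT cerebella were at 2.12, 1.29 and 1.83 TPM and the Brca2-WT;Trp53-mut cerebella at 1.53, 2.83 and 2.34 TPM. Every tumor was above every adjacent sample, which in turn were all above every control, while the 2 control genotypes overlapped. The increase over the controls was 4.31 ± 0.25 (SE) on the log2 scale, with a limma adjusted p of 1.34e-07, and across all alternative settings it lay between 4.02 and 4.82.

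Neo1 (chromosome 9, 58874679 to 59036614), the relative of Dcc, was well expressed in all samples and rose less steeply. It was at 89.9, 112.6 and 112.0 TPM in the tumors, 83.7, 60.5 and 48.5 TPM in the adjacent cerebella, 44.5, 35.6 and 34.5 TPM in the Brca2-mut;Trp53-WT controls and 42.6, 40.7 and 40.5 TPM in the Brca2-WT;Trp53-mut controls. The lowest tumor stood above the highest adjacent sample, and the lowest adjacent sample above the highest control. The tumors were 1.38 ± 0.11 (SE) above the controls (limma adjusted p = 1.14e-06).

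Robo3 (chromosome 9, 37416045 to 37433436), the Robo family receptor that lets commissural axons cross the midline and works with Dcc in the response to netrin, was uneven among the tumors. It was at 68.7 TPM in the GB344 tumor but at 10.6 and 4.85 TPM in those of GB359 and GB370, and at 5.63, 1.49 and 0.187 TPM in the adjacent cerebella. The controls were at 0.239, 0.351 and 0.367 TPM and at 0.541, 0.289 and 0.472 TPM, so the GB370 adjacent cerebellum was below every control. Tumors were above all controls but overlapped the adjacent range, as did the adjacent samples and both control genotypes. The increase over the controls was 3.61 ± 0.59 (SE) with a limma adjusted p of 0.000291, and 2.59 without the GB344 tumor (adjusted p = 7.21e-06). Robo3 was below 1 TPM in all 6 controls and entered this test only through the tumors, where it is high, so it is counted apart below. With no filter on low values its adjusted p was 0.000635.

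The 4 Unc5 receptors, through which netrin repels, were lower in the tumors, each with 3 tumors below all 9 other samples. Of all genes tested against the controls, 21.5% were called lower, and the share separated in this way was not counted. Unc5a (chromosome 13, 54945151 to 55006018) was at 2.01, 2.22 and 2.49 TPM in the tumors and 25.3, 29.0 and 41.4 TPM in the adjacent cerebella. Its controls were at 25.0, 21.6 and 26.7 TPM in Brca2-mut;Trp53-WT and 33.4, 29.3 and 26.8 TPM in Brca2-WT;Trp53-mut mice, so the tumors were far below the other 3 groups. The decrease from the controls was -3.11 ± 0.13 (SE) on the log2 scale (limma adjusted p = 2.72e-08). Unc5a shares 34 exonic bases with Hk3 on the opposite strand, and Hk3 did not exceed 2.65 TPM in any group.

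Unc5b (chromosome 10, 60762594 to 60831581), also known for its part in blood vessel guidance, was the most abundant of the 4 in every sample. It was at 11.2, 18.1 and 18.7 TPM in the tumors, 38.9, 55.8 and 46.4 TPM in the adjacent cerebella, 49.3, 45 and 41.3 TPM in the Brca2-mut;Trp53-WT controls and 59.7, 56.1 and 53.1 TPM in the Brca2-WT;Trp53-mut controls. The adjacent range overlapped that of both control genotypes, and the decrease in tumors was -1.63 ± 0.17 (limma adjusted p = 8.95e-06). The 6 endothelial markers summed to 96.4 to 153 TPM in tumors and 95.1 to 114 TPM in controls. Their part in the Unc5b level was not tested.

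Unc5c (chromosome 3, 141465564 to 141834924), the receptor whose loss displaces cerebellar neurons, was at 7.22, 10.4 and 5.10 TPM in the tumors and 21.8, 19.6 and 21.2 TPM in the adjacent cerebella. The controls were at 23.5, 23.9 and 19.6 TPM in Brca2-mut;Trp53-WT and 26.8, 24.4 and 26.0 TPM in Brca2-WT;Trp53-mut mice. The adjacent cerebella overlapped the Brca2-mut;Trp53-WT controls, which were all below the Brca2-WT;Trp53-mut controls, and the tumors were -1.59 ± 0.18 from the controls (limma adjusted p = 1.78e-05). Unc5d (chromosome 8, 28646717 to 29219671), a receptor for Flrt proteins in migrating cortical neurons, was the least abundant, at 0.725, 1.45 and 0.730 TPM in the tumors and 4.30, 3.90 and 5.41 TPM in the adjacent cerebella. Its controls were at 6.10, 6.05 and 4.76 TPM and at 4.31, 4.32 and 5.49 TPM. The decrease was -1.66 ± 0.17 (limma adjusted p = 7.08e-06), and 2 of the tumors were below 1 TPM. Unc5d thus passed the filter only with the controls, where it is high, and it was still called with no filter on low values.

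The main question the design puts is how the tumors differ from cerebella that carry only 1 of the 2 lesions. Of the 8 members other than Draxin, Dcc and Neo1 were called higher and 4 (Unc5a to Unc5d) lower in 3 tumors against 6 controls, and Ntn1 was not called. Robo3 also met the thresholds, which makes 3 higher with it and 2 without it. Among the 4 lower members, Unc5d passed the filter only with the controls, where it is high. Over all 16241 genes tested, 14.4% were called higher and 21.5% lower. The 8 members had a median difference of -0.62 on the log2 scale, and all genes one of -0.11. With quantile normalization the median of all genes moved to 0.04 and that of the tumor and adjacent comparison from -0.14 to 0.12, and every one of the 8 members kept its direction and its call in the comparison with controls. All 7 calls were also kept with either control genotype as the only control and without any 1 sample. The progenitor markers were higher and the mature granule and Purkinje cell markers lower in the same tumors, by the sums given above, and their part in the members' differences was not tested.

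**Figure D2:**
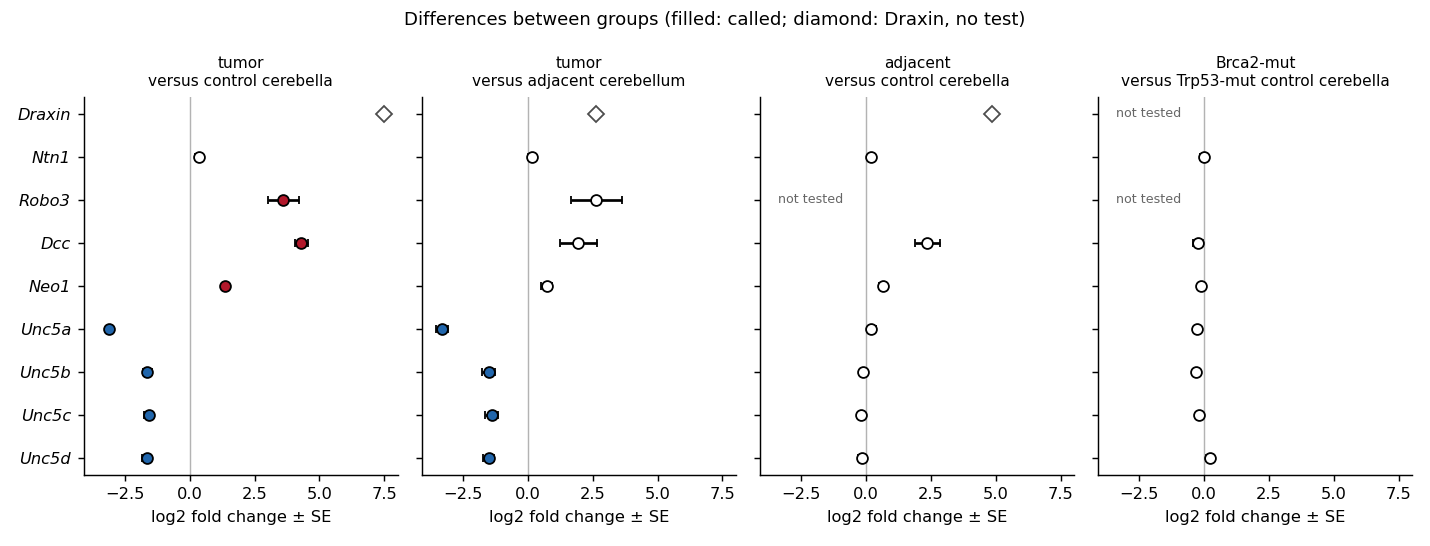
Difference in mean log2(TPM + 1) (horizontal axis) of each gene (vertical axis) in the 4 comparisons, with limma standard errors as bars, filled points for called genes and an open diamond for Draxin, which was not tested there. In the comparison with control cerebella Dcc, Neo1 and Robo3 lie to the right and the 4 Unc5 genes to the left. The Unc5 genes lie to the left against the adjacent cerebella as well and near 0 between adjacent and control cerebella.

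Comparing the tumors with the cerebellum of the same mice asks another question, how tumor and cerebellum differ when both carry the 2 lesions. All 4 Unc5 genes were again called lower, by -3.32 ± 0.22 for Unc5a, -1.52 ± 0.23 for Unc5b, -1.40 ± 0.25 for Unc5c and -1.50 ± 0.21 for Unc5d (limma adjusted p = 0.000192, 0.00237, 0.00403 and 0.00175). None of the 8 was called higher by limma. An unadjusted p under 0.05 was found for 9045 of all 15845 genes in either direction, and among the 8 members for 3 higher and 4 lower. The 3 higher were Dcc at 1.95 ± 0.70 (adjusted p = 0.0540), Neo1 at 0.73 ± 0.21 (adjusted p = 0.0275) and Robo3 at 2.64 ± 0.99 (adjusted p = 0.0621). Ntn1 was at 0.15 ± 0.16 (adjusted p = 0.449). With the mouse as a replicate block, Robo3 was called higher at the same fold change (limma adjusted p = 0.00234). Thus 1 of the 8 members was then called higher, beside 4.42% of all genes. Robo3 was at 1 TPM or more in only 2 adjacent samples and passed the filter here only with the tumors, where it is high. Unc5d passed it only with the adjacent cerebella, where it is high. Over all 15845 genes, 4.76% were called higher and 18.0% lower, or 755 and 2852 genes, a split that became 1603 and 2192 genes with quantile normalization and 1296 and 2476 with median-of-ratios scaling. The higher count fell to 458, 275 and 189 without the GB344, GB359 and GB370 tumor and to 210 without the GB359 adjacent cerebellum, while the lower count stayed between 2167 and 2674 when 1 sample was left out. The Unc5a and Unc5d calls held without any 1 sample, but those of Unc5b and Unc5c did not: without the GB359 adjacent cerebellum their adjusted p was 0.0121 and 0.0163, and Unc5c was also lost without the GB344 tumor (0.0112) or the GB344 (0.0148) or GB370 (0.0144) adjacent cerebellum. With the GB370 adjacent cerebellum alone, Unc5a was at -3.71 on the log2 scale. Dcc then stood at 3.62, Neo1 at 1.09 and Robo3 at 3.82, and Unc5b, Unc5c and Unc5d were at -1.51, -1.42 and -1.72. No call is given for this setting, since it rests on a single adjacent sample, that of GB370. Without that sample the Dcc difference was 1.12. The Robo3 difference was 1.61 without the GB344 tumor.

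The adjacent cerebella were not alike, and the members that were high in the tumors followed the order of the mice. Draxin in the adjacent cerebellum was 49.0% of its level in the tumor of the same mouse in GB344, 31.9% in GB359 and 2.49% in GB370. For Dcc the shares were 80.3%, 26.4% and 6.3%, and for Neo1 93.1%, 53.8% and 43.3%. Robo3 did not keep this order, with 8.21%, 14% and 3.86%. Among the progenitor markers the shares of Atoh1 were 49.98%, 20.7% and 1.57% and those of the proliferation marker Top2a 42.7%, 23.1% and 2.86%. Unc5a ran the other way in each mouse, at 1259%, 1307% and 1661% of its tumor level, while Ntn1 stayed at 74.2%, 92.2% and 105%. These are single pairs without a test, and the part of progenitor transcripts in the adjacent levels was not tested.

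**Figure D3:**
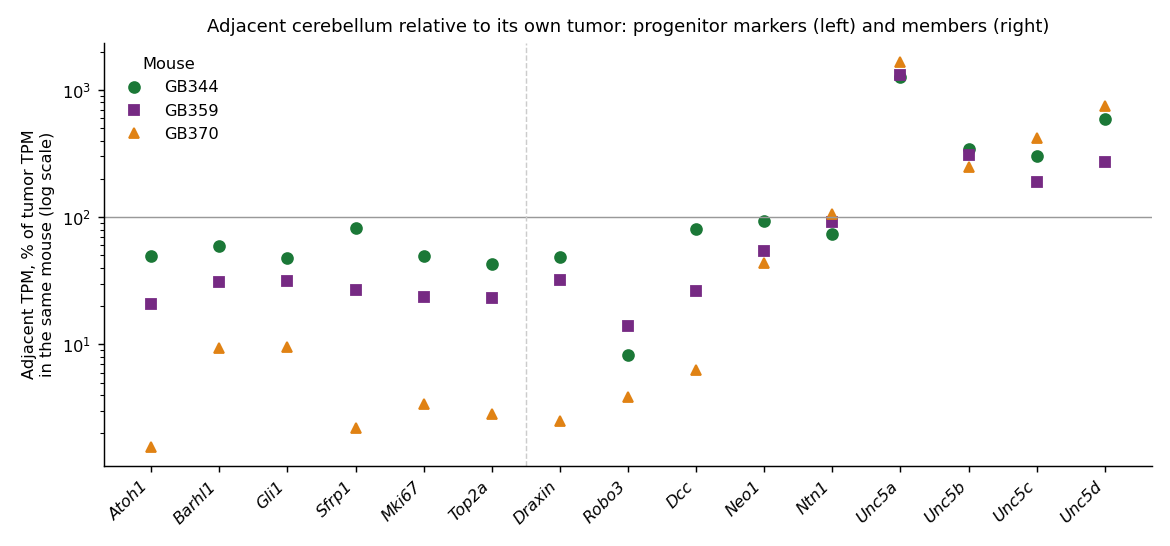
TPM in the adjacent cerebellum as a percentage of the tumor of the same mouse (vertical axis, log scale, line at 100%) for the 6 progenitor markers on the left and the 9 guidance genes on the right, 1 symbol per mouse. GB370 is lowest for every progenitor marker and for Draxin, Robo3, Dcc and Neo1, and the 4 Unc5 genes are above 100% in all 3 mice.

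The adjacent cerebella were also compared with the 6 tumor-free controls, which the tumor comparison shares. The adjacent samples carried both lesions and each control only 1, and the time of collection was set differently. Lying beside a tumor, the double mutant genotype and the time of collection thus cannot be told apart in this comparison. The paper describes its normal cerebella as age-matched to the tumors, but the labels give no age for the individual tumor mice. By limma, none of the 7 members that passed the filter, Draxin apart, was called in either direction. An unadjusted p under 0.05 was found for 5551 of all 16091 genes in either direction, and for 2 of the 7 members, both higher. Those were Dcc at 2.36 ± 0.49 (adjusted p = 0.0181) and Neo1 at 0.65 ± 0.15 (adjusted p = 0.0241). Of all 16091 genes, 0.224% were called higher and 0.0124% lower, or 36 and 2 genes, which became 41 and 18 with quantile normalization. These counts turned on single samples: without the GB370 adjacent cerebellum they were 564 and 22, without that of GB344 1 and 1, without that of GB359 11 and 29, and without any 1 control 0 to 7 higher and 0 lower. The Dcc result turned on 1 sample: without the GB370 adjacent cerebellum it was called, at 3.19 with an adjusted p of 3.86e-05, in a setting that called 3.51% of all genes higher, and with that cerebellum alone it was 0.69 with an adjusted p of 0.240. Neo1 was at 0.29 (adjusted p = 0.331) with that cerebellum alone. The Unc5 genes were within 0.21 of the controls in either direction on the log2 scale, at 0.21 ± 0.16 for Unc5a, -0.11 ± 0.14 for Unc5b, -0.19 ± 0.10 for Unc5c and -0.16 ± 0.15 for Unc5d. With the GB370 adjacent cerebellum alone, Unc5a was at 0.60 (adjusted p = 0.164) and the other 3 between -0.17 and 0.07. Ntn1 was at 0.19 ± 0.11. Robo3, at 1 TPM or more in 2 adjacent samples and no control, did not pass the filter.

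The 2 control genotypes, each with 1 lesion, were compared to see which members differ without a tumor. By limma, none of the 7 members tested was called, against 0.0128% of 15575 genes called higher and 0.0449% lower in Brca2-mut;Trp53-WT, or 2 and 7 genes, which became 2 and 1 with quantile normalization. Unc5a and Unc5b had an unadjusted p under 0.05, both lower in Brca2-mut;Trp53-WT, at -0.27 ± 0.11 (adjusted p = 0.234) and -0.31 ± 0.09 (adjusted p = 0.124). Of all 15575 genes, 3123 had an unadjusted p under 0.05 in either direction. For Unc5a, Unc5b and Unc5c the 3 Brca2-mut;Trp53-WT cerebella lay below the 3 Brca2-WT;Trp53-mut cerebella without overlap. For Unc5a the gap was narrow, from 26.73 TPM in GB512 to 26.75 TPM in GB520. The share of all genes separated in this way was not counted. The other values were -0.22 ± 0.20 for Dcc, -0.12 ± 0.10 for Neo1, -0.02 ± 0.14 for Ntn1, -0.20 ± 0.10 for Unc5c and 0.22 ± 0.14 for Unc5d. Draxin and Robo3 were at 1 TPM or more in 1 and 0 of these 6 samples and were not tested. The choroid plexus markers separated the same genotypes, by the sums given above, and their part in the Unc5 values was not tested.

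The balance of the receptors differed between tumor and cerebellum. Dcc and Neo1 together had 127, 198 and 172 TPM in the GB344, GB359 and GB370 tumors, and the 4 Unc5 genes together had 21.2, 32.2 and 27.0 TPM. The ratio of the sums was 5.97, 6.17 and 6.37 in the tumors, which differed little from each other, and 0.355 to 0.448 in the controls. In the adjacent cerebella it was 1.25, 0.768 and 0.457, in the same order of mice as the Dcc level. Within the sum of Dcc and Neo1, Dcc made up 29.0% to 43.3% of the transcripts in tumors and 3.46% to 6.50% in controls, so Neo1 was the larger part everywhere. Within the Unc5 sum, Unc5a fell from 22.4% to 28.9% in controls to 6.90% to 9.48% in tumors, and Unc5b held 53.1% to 69.2% in tumors and 44.7% to 49.2% in controls. These sums follow from the values above and were not tested.

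**Figure D4:**
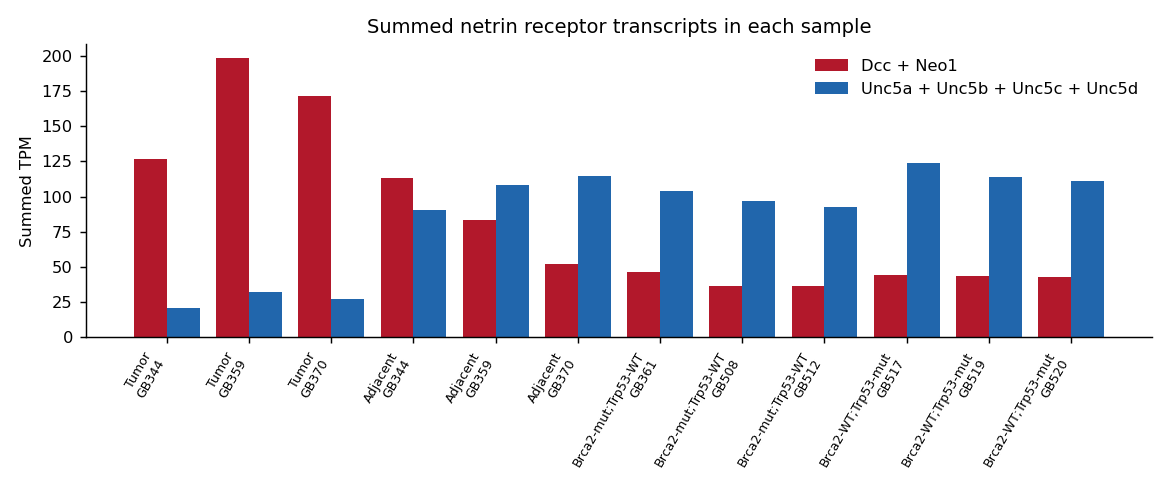
Summed TPM of Dcc and Neo1 and of the 4 Unc5 genes (vertical axis, bars from 0) in each of the 12 samples (horizontal axis), with no error bars since each bar is 1 sample. The Dcc and Neo1 bar is the taller in the 3 tumors and in the GB344 adjacent cerebellum, and the Unc5 bar in the other 8 samples.

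The genes whose profile was nearest to that of Draxin were Igfbpl1, Top2a, Insm1, Nhlh1 and Hist1h2ao. Nearness was the mean absolute difference of centred log2(TPM + 1) values over the 12 samples among 16498 genes, and it was 0.37, 0.42, 0.42, 0.44 and 0.50 for these genes. Insm1 and Nhlh1 are transcription factors of young neurons and Top2a is a topoisomerase of dividing cells. Igfbpl1 was at 174.6 to 321.5 TPM in tumors, at 103.0, 99.2 and 10.2 TPM in the GB344, GB359 and GB370 adjacent cerebella and at no more than 0.537 TPM in controls. Top2a, like Draxin, had its highest control level in GB512. Hist1h2ao is uncertain, since its reads can be split among near-identical histone genes.

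The rest of the pathway was read from 3 lists of 65 genes, all of them in the table. Of the 63 tested against the controls, 9 were called higher and 17 lower in the tumors, beside 14.4% and 21.5% of all genes, and their median log2 fold change was -0.14 against -0.11 over all genes. Among 14 other ligands tested, 3 rose and 4 fell. The risers were Flrt2 (1.99 ± 0.15), whose shed ectodomain binds Unc5 receptors, the netrin Ntn3 (1.87 ± 0.14) and the membrane-anchored netrin Ntng2 (1.59 ± 0.32). Ntn3 went from 1.90 to 2.96 TPM in controls to 10.2 to 13.4 TPM in tumors, below the level of Ntn1 in every tumor. The largest decreases were those of Nell1 (-4.46 ± 0.28), a secreted relative of the Robo3 ligand Nell2, Flrt1 (-2.76 ± 0.14) and Slit3 (-1.58 ± 0.24), a ligand of the Robo receptors. Flrt1 was below 1 TPM in all 3 tumors and entered the test only through the controls, where it is high, and with no filter on low values its limma adjusted p was 2.57e-07. Nell1 was at 34.9 to 56.0 TPM in controls and 0.184 to 2.32 TPM in tumors. Nell1 and Slit3, the latter at 0.893 to 3.68 TPM in tumors, also passed the filter only with the controls, where they are high.

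Of the 17 other receptors and co-receptors, 3 rose and 6 fell. The heparan sulfate proteoglycan Gpc3 rose by 3.44 ± 0.51, from 1.47 to 2.63 TPM in controls to 10.04 to 90.3 TPM in tumors, the slit receptor Robo1 by 1.78 ± 0.16 and Lingo1, a co-receptor of myelin inhibitors, by 1.33 ± 0.13. Lrrc4 (-2.95 ± 0.15) and Lrrc4c (-2.39 ± 0.13), the synaptic partners of the membrane-anchored netrins, fell, as did Adgrl3 (-2.0 ± 0.12), a latrophilin that binds Flrt and Unc5 proteins. Among 32 genes of signalling, trafficking and receptor turnover, 3 rose and 7 fell. Siah1b (2.17 ± 0.13), of a family of ubiquitin ligases that act on Dcc, Dapk1 (1.8 ± 0.17), a kinase of the death signal of Unc5b, and the adaptor Nck2 (1.04 ± 0.08) rose. The actin-binding Ablim1 (-3.91 ± 0.28), the Dcc-binding ubiquitin ligase Trim9 (-3.52 ± 0.21) and the kinase Pak1 (-3.36 ± 0.19) fell. Trim9 was at 126 to 175 TPM in controls and 7.04 to 17.1 TPM in tumors. The highest limma adjusted p among these named genes was 0.00123, for Ntng2.

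**Figure D5:**
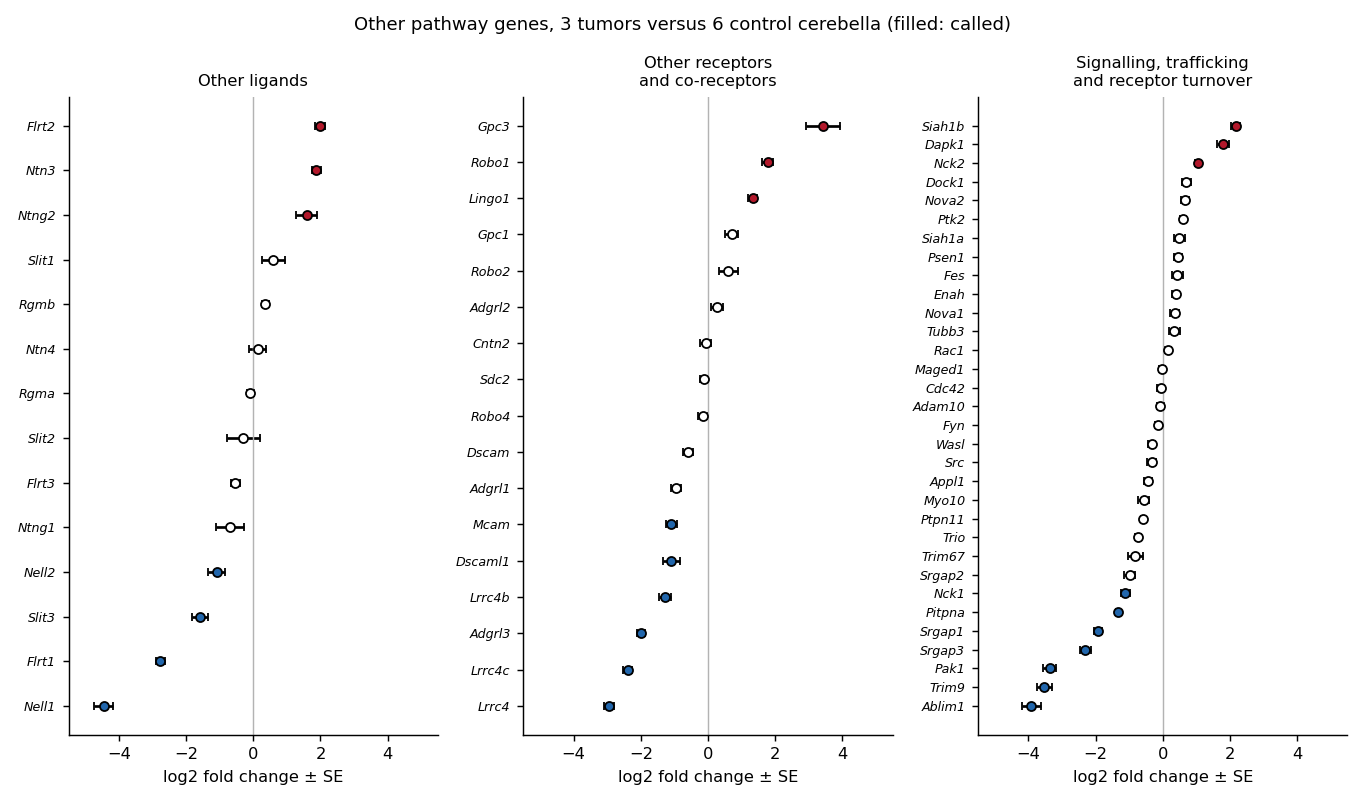
Difference in mean log2(TPM + 1) of 3 tumors from 6 control cerebella (horizontal axis) for the 63 other pathway genes tested, ordered by value within each of 3 lists (vertical axis), with limma standard errors as bars and filled points for called genes. Values run from Nell1 at -4.46 to Gpc3 at 3.44, with 9 called higher and 17 lower.

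Against the adjacent cerebella, 6 of 62 pathway genes were called higher and 13 lower, beside 4.76% and 18.0% of all genes, with a median of -0.22 against -0.14. Those called higher were Flrt2 (1.53), Ntn3 (1.41), Robo1 (1.499), Lingo1 (1.03), Siah1b (1.55) and Dapk1 (1.19). The decreases named by the same rule, up to 3 from each list, were those of Nell1 (-4.03), Flrt1 (-2.54), Slit3 (-1.71), Lrrc4 (-2.68), Lrrc4c (-2.17), Adgrl3 (-1.46), Ablim1 (-3.86), Trim9 (-3.20) and Pak1 (-2.87). The highest limma adjusted p among these genes was 0.00883, for Slit3. Nell1, Flrt1 and Slit3 passed the filter here only with the adjacent cerebella, where they are high. With the mouse as a replicate block, 4 were called higher and 13 lower, beside 4.42% and 17.9% of all genes. Flrt2, Lingo1, Dapk1, Slit3 and Srgap2 were then no longer called (limma adjusted p = 0.0157, 0.0165, 0.0111, 0.0109 and 0.0158). Gpc3 was called higher at 2.32 (limma adjusted p = 0.00935), and Lrrc4b and Mcam were newly called lower (limma adjusted p = 0.00724 and 0.00266). Without the GB370 tumor 2 pathway genes were called higher, beside 1.19% of all genes. By limma, no pathway gene was called between adjacent and control cerebella, where 12 were higher and 11 lower at an unadjusted p under 0.05, or between the control genotypes, where 6 and 8 were. Over all genes, 5551 of 16091 and 3123 of 15575 had an unadjusted p under 0.05 in these 2 comparisons, in either direction. Without the GB370 adjacent cerebellum, 2 of the 62 (Gpc3 and Ntng2) were called higher in the adjacent cerebella, in the setting that called 3.51% of all genes higher.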

How the data were processed

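Gene-level TPM values were deposited by the authors as 1 table of 12 samples. According to the labels and methods, polyA RNA was made into libraries with the NEB Ultra II RNA kit, transcripts were quantified with Salmon 0.8.1 and summed per mm10 gene. The kit is not stated to keep strand, so reads from overlapping genes cannot always be assigned. A TPM table keeps no depth, and no interval from counts could be given.

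TPM values were tested as log2(TPM + 1) with limma 3.58.1 in R 4.3.3 (empirical Bayes with a trend) on genes at 1 TPM or more in at least 3 samples of a comparison, with Benjamini-Hochberg adjustment over all genes tested. A gene was called at an adjusted p below 0.01 where its log2 fold change was also 1 or more in size. Only the groups compared entered a fit. This step was tested on simulated data. Tumor and adjacent samples came from the same mice, and the deviations of each pair from the group means correlated at 0.25, 0.18 and 0.15 over 15845 genes, so a fit with the mouse as a replicate block was an alternative. Replicate columns correlated at 0.951 to 0.984 and none were identical. Per the methods, RNA was sequenced at 2 sites, while the labels name 1 of them for these libraries, and no batch is given per sample, so none could be tested. P-values measure the spread between these mice.

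The members, pathway lists and marker lists were chosen with earlier results of these data known. Named pathway genes were up to 3 called genes of the largest change per list and direction in the 2 tumor comparisons. Promoters were from RefSeq and exons from GENCODE, both GRCm38. Overlapping genes were looked up by RefSeq span. Alternatives changed the pseudocount to 0.1, the minimum to 5 TPM or none, the scaling, the trend, the samples in the fit, the threshold and the controls, and left out each sample.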

Additional observations from a re-analysis of the deposited data

Results flagged for a closer look

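Draxin in the control cerebellum of GB512 (Brca2-mut;Trp53-WT) was at 4.90 TPM, far above the other 5 controls, and the gap to the next control was 0.954 of the range of all 6. Draxin's control levels helped to choose it, so this is a description and not a test. The proliferation markers Mki67 and Top2a were also highest among the controls in this cerebellum, at 5.63 and 8.42 TPM, while Atoh1 was at 0.0689 TPM and Dcc at 1.83 TPM, within the range of the other controls. The 4 oligodendrocyte precursor markers also summed highest there, at 214 TPM against 103 to 117 TPM in the other controls. The part of dividing cells or of oligodendrocyte precursors in this Draxin level was not tested.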

How the results depend on the processing

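Over the alternatives run, the counts of members called in the comparison of tumor with control cerebella did not move by over 1.5 times, and 544 of 569 member fold changes over all comparisons and alternatives kept their direction and call, while 8 turned direction, 8 lost and 6 gained a call, and 3 of Draxin moved beyond their spread. In tumor against adjacent cerebellum, 1 member was called higher at an adjusted p under 0.05 with no minimum fold change (Neo1) and 1 with the mouse as a replicate block (Robo3), against 0 as reported. These 2 settings called 18.1% and 4.42% of all genes higher. Robo3 passed the filter there only with the tumors, where it is high. The replicate block, used because the pairs come from the same mice, changed no other member's call. The members called lower there ranged from 2 to 4 when 1 sample was left out, beside 13.7% to 16.9% of all genes. The GB370 adjacent cerebellum alone was a setting chosen after seeing the data, in which the lone sample is assumed to vary like the others. In adjacent against control cerebella, 2 members were called higher at the looser threshold (Dcc and Neo1), beside 10.1% of all genes, and 0 to 1 when 1 sample was left out. Directions turned for Unc5b in that comparison (0.045 with Brca2-mut;Trp53-WT controls only, and -0.239 to 0.015 with 1 sample left out), for Unc5d (0.0659 with GB370 alone) and for Ntn1 between the control genotypes (0.0603 with median-of-ratios scaling, 0.0693 with quantile normalization, and -0.151 to 0.0866 with 1 sample left out). None of these 3 was called in any setting of those comparisons. At the looser threshold the pathway genes called higher and lower were 19 and 27 against the controls, beside 31.8% and 39.5% of all genes. Draxin's tumor difference was 8.83 with a pseudocount of 0.1. The causes were not tested. Dcc, Robo3 and Unc5d had no value at a minimum of 5 TPM in some comparisons. TPM gives no depth, so limits at low levels (Draxin and Robo3 in controls, Unc5d in tumors) are unknown.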

Other observations

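The genes nearest in profile to Dcc, looked up after its values were seen and by the same measure as for Draxin, were Rassf4, Barhl1, Sox18, Dcx and Mdga1, with mean absolute differences of 0.18, 0.19, 0.25, 0.25 and 0.26 on the centred log2 scale over 12 samples. Barhl1 is a transcription factor of granule cell progenitors and Dcx a microtubule protein of migrating neurons. Barhl1 was at 145.9 to 340.7 TPM in tumors, at 86.4, 105.7 and 17.9 TPM in the GB344, GB359 and GB370 adjacent cerebella and at 9.89 to 14.1 TPM in controls. Dcx was at 60.4 to 110.0 TPM in tumors, at 33.1, 19.4 and 5.91 TPM in the adjacent cerebella and at 1.48 to 2.72 TPM in controls.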
